A study of Homo sapiens with 6 samples.

Results

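The interleukin and interleukin receptor genes were followed through peak lists of open chromatin in GM12878 cells, a human B-lymphoblastoid cell line. They were the protein-coding genes of GENCODE version 44 on the autosomes (hg19) whose symbol starts with IL and a digit, 78 of 19229 autosomal coding genes. By name and known role 40 encode cytokines, 34 encode receptor chains, and 4 encode neither, namely the antagonists IL1RN and IL36RN, the IL-18 binding protein IL18BP and the amino acid oxidase IL4I1. 7 further interleukin symbols, among them IL2RG for the common gamma chain, lie on the sex chromosomes and did not meet the rule.

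Interleukins are secreted proteins by which leukocytes signal to each other and to the tissue around them. Each is bound by a receptor of several chains on the target cell, and many chains are shared between receptors. Most of them pass the signal through JAK kinases and STAT factors, while the IL-1 and IL-17 families use adaptors such as MYD88 and TRAF3IP2. B cells are known as a source of IL-10 and IL-6 and as targets of IL-4, IL-10 and IL-21, and B-lymphoblastoid lines carry Epstein-Barr virus, which keeps them in an activated state.

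All 6 libraries were bulk ATAC-seq libraries of the same line, fixed in 1% PFA and transposed for 30 min at 37 °C with no antibody, and by their labels they differed in how the crosslinks were reversed at 65 °C. In the old buffer (2 libraries) the solution held SDS and the DNA was purified before PCR. The new buffer (2 libraries) held no SDS and the DNA was again purified, and in bulk Pi-ATAC (2 libraries), named MI-ATAC in the labels, PCR was done directly in a mixture without SDS. By the labels every library was also quenched with EDTA and spun free of its supernatant before that, whereas the methods of the study give these steps for bulk Pi-ATAC and not for the SDS protocol. Differences between protocols therefore cannot be assigned to the reversal of crosslinks alone. No label says whether replicates 1 and 2 came from separate cultures, so the spread between them may be technical, and a single line says nothing of variation between people. ATAC-seq marks open chromatin by where Tn5 inserts adapters. In a bulk library a site open in few cells and a site open weakly in every cell cannot be told apart, and an open site does not show that a gene is transcribed.

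For each peak the lists give the fold enrichment of its summit over local background, and the −log10 of a q value, which is a p value adjusted for the number of positions tested. The lists held 30136 to 38023 peaks. The reads at each summit were solved from its fold enrichment and p value, and their median per library was 20 to 22. By the lowest local background among its summits, the deepest library had 1.24 times the value of the shallowest. As a check of the label, 6 of 8 B cell marker genes held a peak in the gene body or 10 kb on either side in all 6 libraries (75%, beside 63.6% of all coding genes), against 2 of 8 T cell markers (CD8A and CD3G) and 3 of 7 myeloid markers (CD14, LYZ and ITGAM). At their promoters 1 of 8 B cell markers (MS4A1), 1 of 8 T cell markers (CD8A) and none of 7 myeloid markers had a peak in all 6 libraries, beside 41.0% of all coding genes. The markers are few, the B cell share lay near that of all genes, and promoter peaks did not separate the cell types.

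Few interleukin genes had an open promoter. A peak within 1 kb of the gene start was called in all 6 libraries for 17 of 78 genes, which is 21.8% (95% exact binomial interval 13.2 to 32.6%, for counting error over genes only), beside 41.0% of all coding genes. In at least 1 library it was 24 of 78 (30.8%), beside 55.4% of all coding genes. 7 genes were called in 1 to 5 libraries, and 54 in none. Most of the cytokines were without a promoter peak, while 16 of 34 receptors had one in at least 1 library.

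Receptors were called more often than cytokines in every library. At promoters 6 of 40 cytokines were called in all 6 libraries (15%, interval 5.71 to 29.8%) and 10 of 34 receptors (29.4%, interval 15.1 to 47.5%). The intervals overlap, and both shares lay under the 41.0% of all genes. In single libraries 6 or 7 cytokines and 10 to 15 receptors were called. The receptor share exceeded the cytokine share by 21.0 percentage points ± 4.48 (SD, n = 6 libraries), with a range of 14.4 to 26.6, and was higher in 6 of 6 libraries. These libraries share the same genes, so the SD describes the libraries and not the choice of genes. Over genes called in all 6 libraries the excess was 14.4 points from the gene start and 28.7 points when the start of any coding transcript counted. Among all receptors and cytokines called in at least 1 library, 6 of 16 receptors (37.5%) missed a library and 1 of 7 cytokines (14.3%) did, beside 25.9% of all coding genes called at least once.

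**Figure D1:**
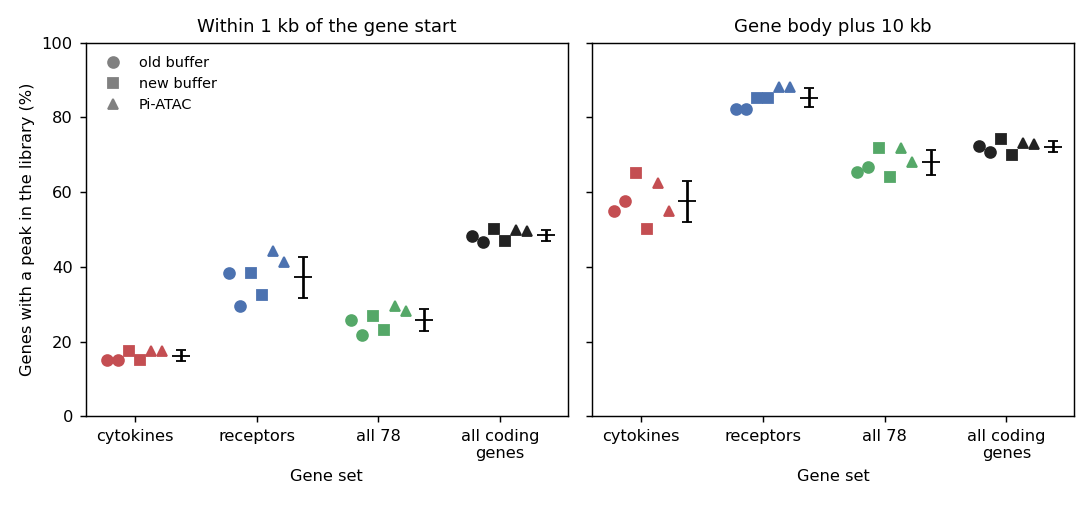
Share of genes with a peak (y axis, %) in each library for cytokines, receptors, all 78 genes and all coding genes, within 1 kb of the gene start (left) and in the gene body plus 10 kb (right); points are libraries, and the bar with a cross line is their mean ± SD (n = 6). Receptors lie above cytokines in each library, below all coding genes at promoters (29.4 to 44.1% against 46.6% or more) and above them in gene windows (82.4 to 88.2% against 69.9 to 74.1%).

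With the gene body and 10 kb on each side included, the receptor share lay above that of all coding genes and the cytokine share below it. A peak in this window was called in all 6 libraries for 45 of 78 genes (57.7%), beside 63.6% of all coding genes, and in at least 1 library for 59 (75.6%), beside 80.0%. By role it was 17 of 40 cytokines (42.5%, interval 27.0 to 59.1%) and 27 of 34 receptors (79.4%, interval 62.1 to 91.3%) in all 6 libraries. The receptor interval includes the 63.6% of all coding genes, and the cytokine interval lies below it. Among genes called in all 6 libraries the excess of receptors was thus 36.9 percentage points. In single libraries 50 to 65% of cytokines and 82.4 to 88.2% of receptors were called. The difference within a library was 27.8 percentage points ± 5.57 on average (SD, n = 6 libraries), from 20.3 to 35.3, with receptors higher in 6 of 6.

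Gene length moved with this result. The median length was 8284 bp for cytokine genes, 45132 bp for receptor genes and 27568 bp for all coding genes, and a longer window has more room for a peak. Below 10 kb, 8 of 22 cytokines (36.4%) and the 1 receptor, IL11RA, were called in all 6 libraries, beside 43.5% of all genes of that length. Between 10 and 50 kb it was 5 of 13 cytokines (38.5%) and 13 of 18 receptors (72.2%), beside 63.9%. At 50 kb and above it was 4 of 5 cytokines (80%) and 13 of 15 receptors (86.7%), beside 78.2%. The receptor share was thus above the cytokine share in each length class, by little among the long genes, with few genes in each class, and the part of length in the result was not tested further. Per 100 kb of window, receptors held 1.99 regions called in all 6 libraries and cytokines 1.51, against 1.19 over all coding genes, with the genes pooled. The median gene held 1.66 among receptors, 0 among cytokines and 1.09 among all coding genes, so by this measure cytokines lay below the background.

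Some of these peaks belong as well to neighbours. 6 of the 24 regions in cytokine windows that all 6 libraries called (25%) lay within 1 kb of a start of another coding gene, and 7 of 47 in receptor windows (14.9%). Without such peaks 14 of 40 cytokines and 22 of 34 receptors kept a peak in all 6 libraries, beside 45.2% of all coding genes, a rule added after the data were seen. The peak in the IL1A window at CKAP2L, that in the IL17RC window at CRELD1 and both in the IL11RA window were of this kind.

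Receptors and cytokines stood far apart within the IL-1 and IL-6 groups. All 7 autosomal receptor genes of the IL-1 family had a window peak in every library, beside 63.6% of all coding genes, against 2 of the 9 cytokines, IL1A and IL18. The IL1A peak was the one at CKAP2L. For IL18 no single region was called in all 6 libraries. Its call joined an intronic region of 5 libraries and an upstream region of 3. Among the receptors, the 1 region of all 6 libraries in the IL1RL1 window lay at a start of IL18R1. Without peaks at starts of other coding genes IL1RL1 was called in 5 libraries. The 5 IL-36, IL-37 and IL-38 genes (IL36A, IL36B, IL36G, IL37 and IL1F10) had no peak in any library. None of the 3 cytokine genes IL6, IL11 and IL31 had a window peak in any library, while 4 of 5 receptors of that group did in all 6 (IL6R, IL6ST, IL11RA and IL31RA). Without peaks at starts of other coding genes IL11RA was called in 0 libraries. In the IL-12 group 3 of 4 cytokines and 3 of 3 receptors were called in all 6, in the common gamma chain group with IL-13 it was 5 of 7 and 5 of 6, and in the IL-17 group 1 of 6 and 3 of 6. The IL-10 family had 3 of 6 cytokines and 4 of 6 receptors. These are small groups of genes that often lie side by side, several of the counts lie near the 63.6% of all coding genes, and no test was made between them.

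Chemokines and the TNF superfamily, the gene groups most like the interleukins, lay on either side. Of 63 chemokine and chemokine receptor genes 2 (3.17%) had a promoter peak in all 6 libraries and 15 (23.8%) a window peak. Of 33 TNF superfamily genes it was 8 (24.2%) at the promoter and 21 (63.6%) in the window. The 21.8% of interleukin genes at the promoter lay nearer to the TNF superfamily.

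Among cytokines, IL7 and IL12A had the strongest promoter peaks. The best promoter peak of a gene is that with the highest −log10 q. For IL7 (chr8:79587978-79717758, minus strand), a growth factor of lymphocyte precursors, this −log10 q was 24.0 and 33.6 in the old buffer libraries, 26.5 and 23.1 in the new buffer libraries and 30.2 and 30.1 in Pi-ATAC, on 52 to 66 reads at the summit. Its summit lay 945 to 1044 bp past the annotated gene start, and a weaker second peak at the start itself was also called in all 6 libraries (−log10 q 9.69 on average). IL12A (chr3:159706622-159713806, plus strand) encodes p35, the chain that makes IL-12 with p40. Its values were 16.4 and 16.2 for the old buffer, 30.8 and 25.5 for the new buffer and 25.3 and 26.9 with Pi-ATAC. The old buffer values were the lowest, and the summits stayed within 184 bp of the gene start.

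IL15 (chr4:142557736-142655140, plus strand), a cytokine that sustains NK cells and memory T cells, had values of 17.7, 20.5, 21.6, 13.5, 20.2 and 19.6 in the order of old buffer, new buffer and Pi-ATAC, replicates 1 and 2 of each. The lowest was new buffer replicate 2, and the protocols overlapped. A further region 83211 bp into the gene, in an intron, was called in all 6 libraries on 12 to 30 reads. IL4, which drives the switch to IgE, was called in all 6 libraries as well, at 813 to 1189 bp past its start and with −log10 q from 4.67 to 12.3. IL12B, the p40 chain, was called 631 to 897 bp upstream in new buffer replicate 1 (7.11) and in Pi-ATAC replicates 1 and 2 (11.6 and 10.1), and in no old buffer library.

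The cytokines IL5 and IL23A share their promoter window with another gene. IL5, the eosinophil growth factor, has its annotated gene start by that of RAD50, a DNA repair gene, and IL23A, the p19 chain of IL-23, lies by PAN2. Their peaks were called in all 6 libraries, with −log10 q of 12.5 to 23.9 and 9.47 to 32.6. From the canonical transcript start of either gene, no library had a peak within 1 kb. These peaks cannot be assigned to the cytokine rather than to its neighbour.

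The strongest peaks in receptor promoter windows were those of IL5RA, IL1RAP and IL6ST, and the window of IL5RA is shared with another gene. IL1RAP (chr3:190231840-190377539, plus strand) encodes the accessory chain through which IL-1, IL-33 and IL-36 receptors signal. Its −log10 q was 53.8 and 36.8 for the old buffer, 47.4 and 31.4 for the new buffer and 57.5 and 44.3 with Pi-ATAC, on 52 to 83 reads, and its fold enrichment was 10.6 ± 0.913 (SD, n = 6 libraries). The peak was within the strongest 6.08% of the list in every library, and ranked 650th by mean −log10 q among the 7889 genes with a promoter peak in all 6. Each protocol had a high and a low library, so the protocols overlapped.

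IL6ST (chr5:55230923-55290850, minus strand) encodes gp130, the signalling chain of the IL-6 family. It had values of 33.8, 23.3, 39.6, 30.0, 38.3 and 31.5 in the same order of libraries, with a fold enrichment of 7.34 ± 0.534 (SD, n = 6 libraries). IL6R, the chain that binds IL-6 itself, had no promoter peak in any library but an intronic region 40095 bp from its start in all 6 (−log10 q 7.36 on average). IL5RA (chr3:3108008-3168297, minus strand), the alpha chain of the IL-5 receptor, ranked 547th, above IL1RAP, with values of 55.8, 37.8, 56.1, 41.6, 52.7 and 38.8. Its gene start lies within 1 kb of that of TRNT1, a tRNA-processing enzyme, and from the canonical IL5RA start only 1 library had a peak. The peak cannot be assigned to IL5RA rather than to TRNT1.

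IL17RA, the chain common to IL-17 receptors, had values of 9.22 and 7.41 for the old buffer, 20.3 and 11.2 for the new buffer and 22.2 and 10.7 with Pi-ATAC. Old buffer values lay under the other 4. IL17RB was called in all 6 libraries at −log10 q of 5.89 to 12.1, with the start of the choline dehydrogenase gene CHDH in the same window.

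The receptors known for B cells were open at lower levels. IL21R, the receptor for the T helper cytokine IL-21, had values of 16.0, 6.04, 14.2, 9.05, 16.3 and 13.1 in the same order, with 28 to 50 reads, and old buffer replicate 2 was the lowest. IL10RA, the ligand-binding chain for IL-10, had values of 9.96, 8.66, 15.7, 10.4, 14.8 and 10.3. IL4R, which serves IL-4 and IL-13, had values of 7.41, 9.06, 5.70, 4.91, 8.39 and 12.4, on 15 to 27 reads. These last 2 promoters ranked 6365th and 7601st among the 7889 genes. IL15RA (5.28 to 12.8) and IL18RAP (3.67 to 8.26), chains of the IL-15 and IL-18 receptors, were the others called in all 6, and at the canonical IL18RAP start no library had a peak. IL4I1, which degrades phenylalanine, was the only gene of the neither class called in all 6 (7.60 to 14.4), and starts of ATF5 and NUP62 lay in its window.

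**Figure D2:**
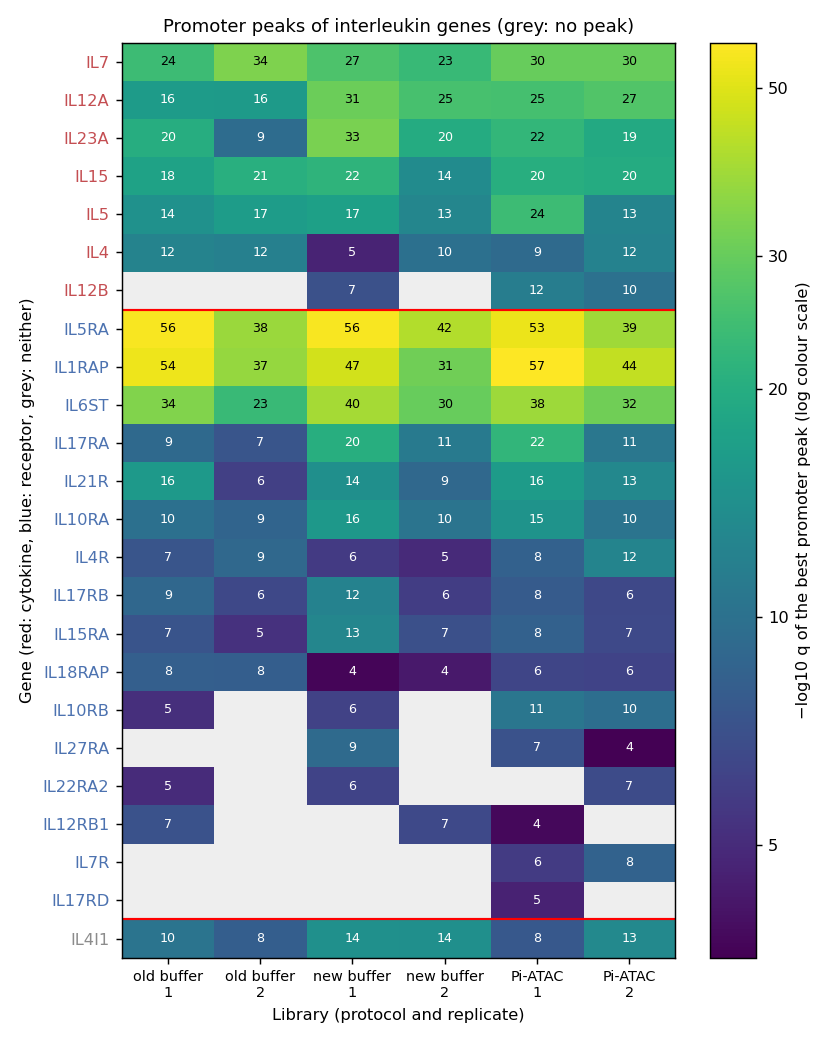
The −log10 q of the best promoter peak (number and colour, log colour scale) of the 24 genes with a promoter peak in at least 1 library (rows: cytokines, receptors, neither) in each of 6 libraries (columns), with light grey for no peak. The rows of IL5RA and IL1RAP are highest throughout (31.4 to 57.5), and the 7 rows with grey cells hold no value above 11.6.

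The 7 genes called in 1 to 5 libraries mostly had weak peaks. IL10RB (4 libraries), IL12B, IL12RB1, IL22RA2 and IL27RA (3 each), IL7R (2) and IL17RD (1) had 11 to 27 reads at their summits, and their median peak stood at 72.4% of its list, counted from the strongest. The 2759 genes of the whole genome called in 1 to 5 libraries had nearly the same median, 72.2%, and 15.8 reads against 15 for the interleukin genes. IL10RB with 27 reads in both Pi-ATAC libraries and IL12B with 26 and 24 were above the median peak. IL7R, the receptor of lymphoid precursors, was called in Pi-ATAC replicates 1 and 2 only (5.77 and 8.48), and the 2 peaks did not overlap each other. IL27RA had a peak 409 or 558 bp past its start in 2 libraries and a separate one 13 bp from it in Pi-ATAC replicate 2. A library without a call at this depth is no evidence of a closed promoter.

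The members called in all 6 libraries ranked lower than other genes called in all 6. Their best promoter peak had a median place at 39.0% of the list from the top (interquartile range 15.1 to 49.8%, n = 17 genes), against 21.3% for the 7889 genes. Without peaks under a −log10 q of 5 it was 24.1% against 19.5%, a narrower gap. 4 of 17 (23.5%) lay in the strongest 10% of peaks, beside 27.3% of the genes, and 4 of 17 (23.5%) in the weaker part below the median, beside 11.9%. The 6 cytokines among them had a median of 20.9% and the 10 receptors of 41.4%, so that cytokine promoters, while fewer, were not the weaker ones. Receptors ranged widely, from 2.23% for IL5RA, whose window is shared with TRNT1, and 2.73% for IL1RAP to 75.6% for IL18RAP on average over libraries.

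CpG content moved with the promoter calls. The ratio of observed to expected CpG within 1 kb of the start had a median of 0.253 in cytokine genes, 0.318 in receptor genes and 0.616 in all coding genes. A ratio below 0.4 was found for 30 of 40 cytokines (75%) and 19 of 34 receptors (55.9%), against 29.6% of all genes. Among genes below 0.4, 3 of 52 interleukin genes (5.77%) had a promoter peak in all 6 libraries, beside 3.80% of all coding genes. From 0.4 to 0.7 it was 8 of 18 (44.4%), beside 46.8%, and at 0.7 and above 6 of 8 (75%), beside 67.4%. By role, the share below 0.4 was 1 of 30 cytokines (3.33%) and 2 of 19 receptors (10.5%). From 0.4 to 0.7 it was 5 of 10 cytokines (50%) and 2 of 7 receptors (28.6%), so in this class cytokines stood above receptors. No cytokine lay in the highest class. The classes hold few genes, and the part of CpG content in the excess of receptors was not tested. All 8 in the highest class were receptors, and the 2 of them without a promoter peak were IL12RB2 and IL20RA. The 3 called at low CpG content were IL18RAP, IL21R and IL4.

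**Figure D3:**
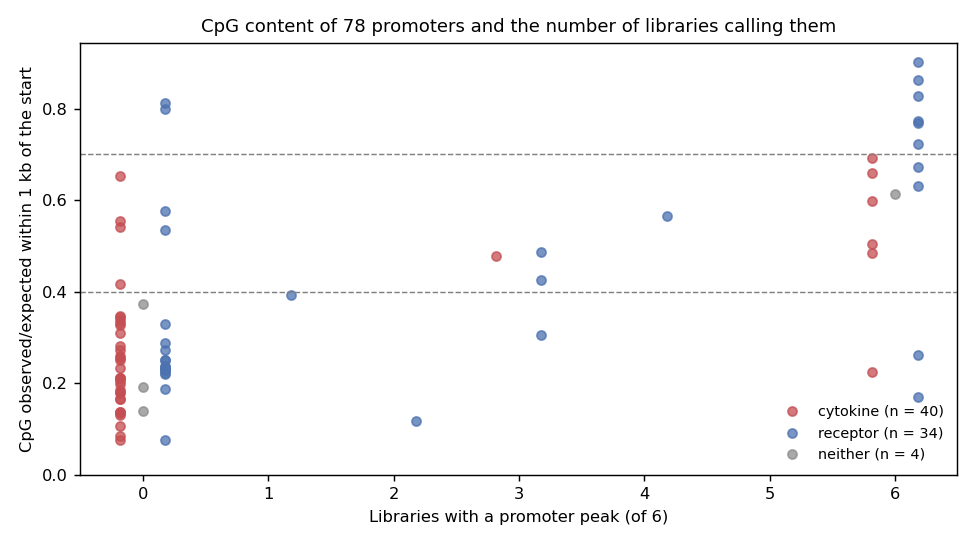
Ratio of observed to expected CpG within 1 kb of the gene start (y axis) against the number of libraries with a promoter peak (x axis) for 40 cytokines, 34 receptors and 4 other genes, each point 1 gene, with dashed lines at 0.4 and 0.7. Genes called in none had a median ratio of 0.235 and genes called in all 6 a median of 0.660, and no cytokine lies above 0.7.

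The 78 windows held 194 distinct regions. All 6 libraries called 72 of them (37.1%), and 49 (25.3%) were found in a single library, near the 35.6% and 27.3% of all 54338 autosomal regions. Of the 72, 38 (52.8%) lay more than 1 kb from every coding start, against 58.6% of all 19364 regions called in all 6 libraries. Counted once for each gene whose window holds it, a region of all 6 libraries in receptor windows fell 20 times in an intron, 11 times at the promoter, 6 times at another start of the same gene, 7 times in the downstream flank, 3 times upstream and 1 time in an exon. In cytokine windows it was 6 times in an intron, 7 at the promoter, 9 downstream, 3 upstream and 1 at another own start.

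The 6 genes without a promoter peak and with most regions of all 6 libraries were IL1R1 and IL23R (5 each), IL16, IL19 and IL1R2 (3 each), and IL10 (2), which was taken by alphabetical order from 7 genes with 2. IL23R, which with IL12RB1 forms the IL-23 receptor, held 10 regions, 5 of them in all 6 libraries. The strongest lay in an intron, with −log10 q of 37.1 and 34.7 for the old buffer, 36.3 and 31.3 for the new buffer and 50.6 and 26.3 with Pi-ATAC. The Pi-ATAC libraries were the highest and the lowest of the 6, so the protocols overlapped. Another region of IL23R lay at a downstream start of the gene, 27472 bp on. From the canonical IL23R start all 6 libraries had a peak within 1 kb. The lack of a promoter peak thus holds for the annotated gene start only.

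IL1R1, the signalling IL-1 receptor, held 9 regions, 5 of them in all 6 libraries, and the strongest, 6788 bp upstream, had values of 26.5, 20.2, 27.2, 14.4, 14.3 and 18 in the order of old buffer, new buffer and Pi-ATAC. IL1R2, the decoy receptor that binds IL-1 without signalling, had an intronic region 33914 bp from its start with values of 34.0, 18, 32.1, 17.5, 23.8 and 17.9. For both genes a later start of a coding transcript carried a peak in all 6 libraries, 40020 bp on for IL1R1 and 7156 bp on for IL1R2, while the annotated gene start did not. IL16, a chemoattractant for CD4+ cells, had an intronic region 134406 bp on with values of 34.9, 24.6, 36.1, 24.2, 36.3 and 38.1. A stronger region in the IL16 window, with −log10 q 45.4 on average, lay at the start of STARD5. These sequences on the plus strand of hg19, 121 bp around the summit, are shown because they are strong elements of genes whose promoter was not called:
IL16, chr15:81586262-81586382: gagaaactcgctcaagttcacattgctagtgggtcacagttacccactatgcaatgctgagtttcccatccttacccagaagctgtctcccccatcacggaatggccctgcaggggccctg
IL1R2, chr2:102642276-102642396: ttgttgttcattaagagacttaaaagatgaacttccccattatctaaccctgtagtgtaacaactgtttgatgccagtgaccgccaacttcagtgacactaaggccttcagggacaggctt
None of the 5 motifs searched was in these 2 sequences, which says only that the letters TGANTCA (AP-1), GAAANNGAA (interferon-regulatory factor element), GGANTTTCC (NF-kB core), GAGGAA (PU.1 core) and CCGGAAG (ETS core) were not there on either strand. In the wider stretch used for the counts given further on, 100 bp on each side of the summit, the IL1R2 region holds an AP-1 match.

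IL10 and IL6, the interleukins best known from B cells, differed. IL10 had no promoter peak in any library, and its window held 4 regions, 2 of them in all 6 libraries. The region 7991 bp past its start, in the downstream flank, had values of 9.80, 12, 11.5, 10.7, 11.0 and 8.63, lowest in Pi-ATAC replicate 2. The other lay 8206 bp upstream, on 14 to 22 reads. A region over an IL10 exon, 5000 bp from the start, was called in 5 libraries and not in old buffer replicate 2. IL19, a cytokine of the IL-10 family, overlaps these windows and shares all 4 regions, and its own strongest region was in an intron 32688 bp from its start, with values of 14.7, 15.1, 23.1, 9.24, 22.1 and 16.5. IL6 had no peak in any library within 10 kb of the gene.

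IL2RA, the alpha chain of the IL-2 receptor and a mark of activated lymphocytes, had no promoter peak but an intronic region 11188 bp from its start, with values of 18.7, 19.0, 17.0, 12.3, 17.6 and 21.8. The lowest was new buffer replicate 2 and the highest Pi-ATAC replicate 2. IL21R had a region at a downstream start of the gene 24429 bp on (7.63 to 23), and IL4R one in its downstream flank, 61332 bp from the gene start (10.9 to 21.7), on the side of IL21R. The strongest intronic region of all receptors, named after its values were seen, was in IL12RB2, a chain of the IL-12 receptor, 25821 bp on, with values of 44.9, 38.3, 40.1, 24.3, 44.8 and 41.0. The elements of IL10, IL19 and IL2RA are shown because each holds a searched motif, in capitals (PU.1 core read from the other strand in IL10, AP-1 in IL19, ETS core in IL2RA):
IL10, chr1:206939835-206939955: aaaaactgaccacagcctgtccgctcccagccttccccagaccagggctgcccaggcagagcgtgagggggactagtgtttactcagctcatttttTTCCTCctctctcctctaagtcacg
IL19, chr1:206976737-206976857: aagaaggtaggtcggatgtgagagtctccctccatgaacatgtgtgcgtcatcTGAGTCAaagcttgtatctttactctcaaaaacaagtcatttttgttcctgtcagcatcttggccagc
IL2RA, chr10:6093085-6093205: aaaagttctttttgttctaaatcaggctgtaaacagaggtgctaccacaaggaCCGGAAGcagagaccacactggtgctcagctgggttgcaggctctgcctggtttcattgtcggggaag
Within 100 bp on each side of the summit, AP-1 letters were in 9 of 38 regions of all 6 libraries away from coding starts (23.7%), against 21.7% of 11350 such regions on the autosomes. The PU.1 core was in 10 of 38 (26.3%) against 20.1%. The ETS core was in 2 of 38 (5.26%) against 1.91%. The NF-kB core was in 2 of 38 (5.26%) against 4.04%.

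**Figure D4:**
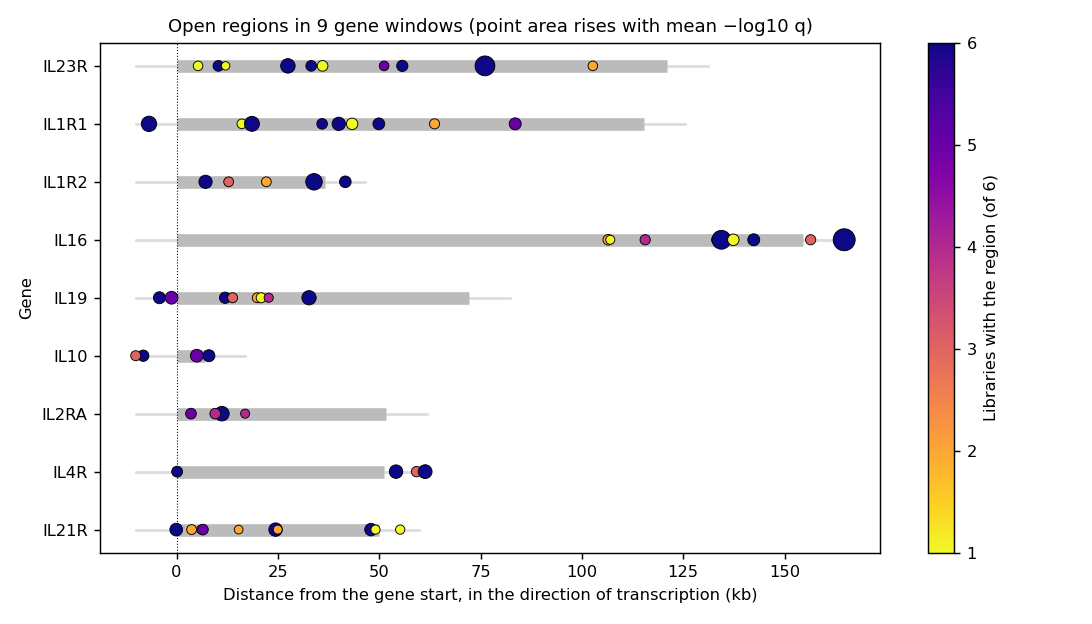
Open regions (points) in the windows of 9 genes (rows) by the distance of their summit from the gene start (x axis, kb in the direction of transcription), with gene bodies as grey bars and the 10 kb flanks as thin lines; colour gives the number of libraries and point area rises with mean −log10 q. IL23R and IL1R1 each show 5 regions of all 6 libraries and none at the annotated gene start, and in IL4R and IL21R that start is open. The canonical IL23R start, further into the gene, had a peak in all 6 libraries.

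Within 1 kb of coding starts the share with the interferon-regulatory factor element was higher than over all regions. It was in 8 of 34 regions of all 6 libraries (23.5%), against 3.79% of 8014 regions near coding starts. The 8 were at IL12A, IL15, IL7, IL18RAP, IL15RA (2 regions), an internal start of IL23R, and CHDH near IL17RB. The NF-kB core was in 2 of 34 (5.88%) against 1.42%. AP-1 letters were in 1 (2.94%) against 2.63%, and the PU.1 and ETS cores in 6 each (17.6%) against 16.8% and 16.1%. Away from starts the same element was in 3 of 38 (7.89%), below the 13.6% of 11350. The shares were not tested, and the match does not show that a factor binds there. The matches are shown in capitals with their surroundings, on the plus strand of hg19, shortened where an exon is near:
IL12A, chr3:159706614-159706642: ctgcgaacatTTCGCTTTCattttgggcc
IL15, chr4:142557711-142557739: tcccggctctTTCTCTTTCacttttcttt
IL15RA, chr10:6019550-6019578: gccagtcgcaTTCGCTTTCgcttttgctt
IL15RA, chr10:6018032-6018090: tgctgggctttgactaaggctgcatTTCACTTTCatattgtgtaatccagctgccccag
IL18RAP, chr2:103034811-103034869: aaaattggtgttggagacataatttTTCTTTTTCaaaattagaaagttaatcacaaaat
IL23R, chr1:67631949-67632007: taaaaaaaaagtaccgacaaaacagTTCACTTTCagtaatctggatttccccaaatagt
IL17RB, chr3:53877842-53877900: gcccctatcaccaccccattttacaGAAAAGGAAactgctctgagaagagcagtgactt
All but the last hold the element on the minus strand. The second IL15RA region holds another match, on the plus strand, that is not printed. The middle of the match lay 11 bp before the gene start in IL15 and 6 bp after it in IL12A, and 309 bp before it in IL18RAP. In IL15RA it lay 586 bp and 2089 bp into the gene, the latter at an internal start. The IL7 match is not printed.

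The question of the protocol comparison was whether the way of reversing the crosslinks changes what is seen. For the 10 genes with the highest mean −log10 q among those called in all 6 libraries, the fold enrichment of the highest promoter peak was compared between protocols, 30 comparisons of 2 libraries against 2. No comparison could go below p = 0.333 in a two-sided exact permutation test, and all adjusted p were 0.909 or 1 (Benjamini-Hochberg over the 30 exact tests). The sizes were small, at most 0.46 on the log2 scale.

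IL12A, IL23A and IL17RA were lower with the old buffer than in each of the other protocols. In IL12A the fold enrichment was 6.25 and 6.55 for the old buffer, 8.97 and 8.63 for the new buffer and 7.89 and 8.14 with Pi-ATAC. No old buffer value reached any other. In IL23A it was 8.0 and 6.21, 10.7 and 8.84, and 8.60 and 8.10, and in IL17RA 4.94 and 4.88, 7.63 and 5.91, and 7.61 and 5.32. New buffer over old buffer gave a log2 difference of 0.46 in IL12A, 0.46 in IL23A and 0.45 in IL17RA, each with an exact permutation p of 0.333, the smallest possible. IL12A and IL23A were also lower with Pi-ATAC than with the new buffer, and IL7 was higher. This makes 9 of 30 comparisons without overlap, beside 33.0 to 34.1% of the 7889 genes called in all 6 libraries. An exact p of 0.333 means that shuffled labels separate as fully in that share of cases. By −log10 q in place of fold enrichment it was 5 of 30. For IL5RA, IL1RAP, IL6ST, IL15, IL5 and IL21R the values of all protocols overlapped.

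Such separation was common among all genes. Over the 17 interleukin genes called in all 6 libraries, 8 did not overlap between new and old buffer, 6 of them higher with the new buffer, beside 33.0% of 7889 genes that did not overlap. Between Pi-ATAC and old buffer 6 of 17 did not, beside 34.1%, and between Pi-ATAC and new buffer 6 of 17, beside 33.3%. The median log2 difference over the 17 genes was 0.03, 0.03 and −0.04 in these 3 comparisons, near the 0.04, 0.02 and −0.02 of all genes.

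**Figure D5:**
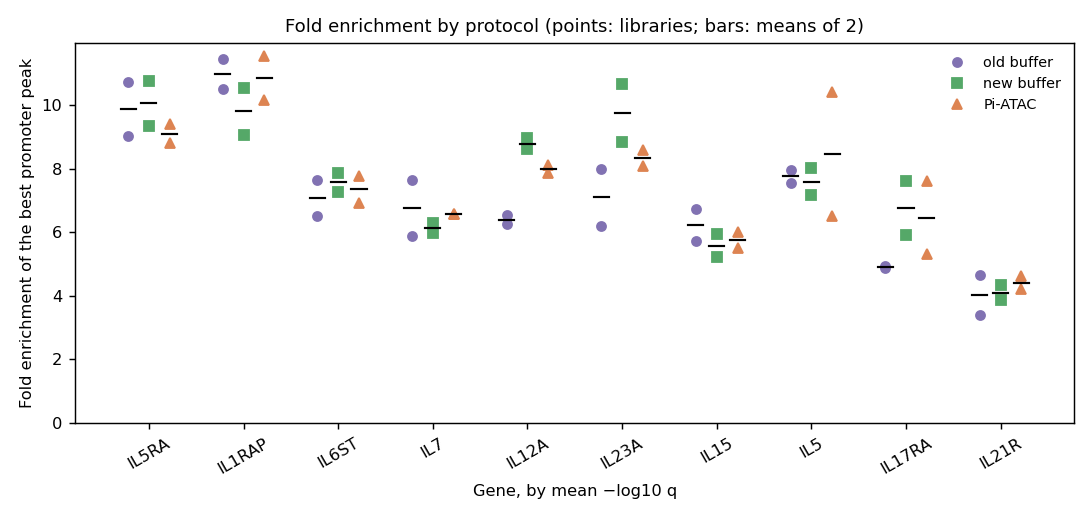
Fold enrichment of the best promoter peak over the local background (y axis, from 0) for 10 genes, ordered by mean −log10 q; points are libraries and bars are means of 2 libraries per protocol. The 2 old buffer points of IL12A (6.25 and 6.55) lie under the other 4, and those of IL1RAP (11.4 and 10.5) among them.

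Presence of a peak gave few differences between protocols. The promoters of IL12B, IL27RA and IL7R were called in both Pi-ATAC libraries and in no old buffer library, as were 193 of all coding genes (1.00%). IL7R alone was called in both Pi-ATAC libraries and in no new buffer library, beside 0.666% of all coding genes. No interleukin promoter was called in both old buffer libraries and missed by both libraries of another protocol. In gene windows, IL1B was called in both new buffer and both Pi-ATAC libraries and in no old buffer library, on 10 to 15 reads. Both new buffer libraries and Pi-ATAC replicate 1 shared an intronic region, while the Pi-ATAC replicate 2 peak was a separate one in the downstream flank. New but not old buffer was found for 0.692% of all coding genes. IL27RA was called in both Pi-ATAC and no old buffer library, beside 0.962% of all genes. The old buffer libraries held 37654 and 34826 peaks, with a median of 22 and 20 reads at the summit, and the part of depth in these calls was not tested.

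The genes that act with these receptors were called at their promoters more often than the interleukin genes. Of 35 genes of interleukin signalling, 16 (45.7%) had a promoter peak in all 6 libraries and 25 (71.4%) in at least 1, beside 41.0% and 55.4% of all coding genes. Of the 4 JAK kinases it was JAK2 and TYK2 (mean −log10 q 27.3 and 17.6), while JAK1 was called in 2 libraries and JAK3 in 4. Among the STAT factors, STAT2, STAT3 and STAT4 were called in all 6 (35.3, 20.8 and 11.5), while STAT5A, STAT5B and STAT6 had no promoter peak in any library. The feedback inhibitors CISH, PIAS1, SOCS1 and SOCS3 were called in all 6, of 6 listed. For the IL-1 receptor adaptors it was 4 of 9, with IRAK4 the strongest (53.6), and for the IL-17 receptor adaptors TRAF3IP2 but not TRAF3 (5 libraries). Of 7 partner subunits without an IL symbol only EBI3, which joins IL-27 p28 and IL-12 p35, was called, in all 6 libraries at 11.3 on average. IL27, the p28 subunit itself, had no peak at its gene start, and its internal start was called in 4 libraries within 1 kb.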

How the data were processed

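The authors mapped paired reads to hg19 with Bowtie2 2.1.0, removed duplicates with Picard 1.79, left out mitochondrial reads, and ran MACS2 for narrow peaks with 0.01 as the q threshold (MACS2 version not given in the sources used here). There is 1 list per library, although the methods describe merging the reads of a condition. The deposited columns hold a score, a fold enrichment (a ratio over the local background), the −log10 p and the −log10 q of the summit. A DESeq step is also named in the submitters' processing notes and left no values in these lists.

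Peaks overlapping a window by at least 1 bp were counted in Python 3.11.15 with pandas 2.3.3. Summit reads were solved from fold enrichment and p value to within 0.001 in −log10 p, and they set the precision of a peak. Depth is known only in relative terms. Regions are overlapping peaks of all libraries merged. CpG content and sequences came from GRCh37, the hg19 build. Exact permutation tests used SciPy 1.17.1. Overlaps gave 0 differences from bedtools 2.31.1 over 19229 windows, and 200 of 200 simulated promoter peaks were recovered.

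A few items are not reported here. Named genes were the 10 strongest promoters called in all 6 libraries, every promoter called in 1 to 5, the 6 genes without a promoter call and with most regions of all 6, and IL10, IL6, IL4R, IL21R, IL2RA, IL7R, IL10RA and IL15. Other genes were named in counts of 5 or fewer or after their values were seen. The members, roles, lists and motifs were chosen with earlier results of these data known. Alternatives were a −log10 q of at least 5, 30136 peaks per list, other windows and starts, each library left out, and a replicate block.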

Additional observations from a re-analysis of the deposited data

Results flagged for a closer look

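Outside the autosomes, 3 X-linked receptor genes of the interleukin system had a promoter peak, in data that the comparisons above do not use. IL2RG, the common gamma chain of the receptors for IL-2, IL-4, IL-7, IL-9, IL-15 and IL-21, was called in 6 libraries with a mean −log10 q of 11.4 on 16 to 28 reads. IL13RA1 was called in 4 libraries on 14 to 21 reads, and IL1RAPL1 in 1 library on 15 reads. No control library without transposase was used here, so these calls stand against the authors' q threshold only. No group had more than 2 libraries, so single libraries were not tested as outliers.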

How the results depend on the processing

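The counts of genes with a promoter or window peak stayed within 1.5 times their value under every alternative run. They were 12 to 20 genes at the promoter in all libraries and 34 to 58 in the window. The 12 were out of 70 genes, without those that share a start. The share of all coding genes moved as well, from 38.3 to 46.1% at promoters and from 45.2 to 81.3% in windows. It was 52.5% beside the 34 genes (gene body alone) and 81.3% beside the 58 (50 kb on each side). Of 108 recomputed values 8 moved by more than the spread of the libraries or by more than 1.5 times, and 100 were counted as unmoved. These 100 include 10 smallest exact p of the protocol comparison, for which no limit was set. 0 changed direction, which only the excess of receptors over cytokines could have done. The excess of receptors over cytokines among genes called in all libraries, 14.4 percentage points at promoters, was 28.7 with the start of any coding transcript and 19.4 with the canonical start, the latter chosen after the data were seen. In windows the excess of 36.9 points was 48.1 for the gene body alone, 28.7 with 50 kb on each side and 29.7 without peaks at starts of other coding genes (also chosen afterwards). The median place of member peaks, 39.0% of the list, was 24.1% when peaks under a −log10 q of 5 were dropped and 27.1% with 500 bp on each side, while all coding genes stood at 19.5% and 20.7%. The cause of these moves was not tested. The comparisons between protocols without overlap were 9 of 30 by fold enrichment, 5 by −log10 q and 7 by reads at the summit. Leaving out a library moved the promoter excess by 0 (14.4 in each case), the window excess to 34.4 to 39.9, the rank to 34.4 to 42.0%, and left the smallest exact p at 0.333. Libraries of one number were not shown to be paired: the replicate differences of 2 protocols correlated at −0.03 to 0.02 over 7889 genes, and with a replicate block the smallest exact p was 0.5. With 2 libraries per protocol the exact permutation test could not reach 0.05, and peaks had at least 8 reads at the summit.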
